A study of Mus musculus with 6 samples.

Results

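The genes examined were those of the transforming growth factor beta (TGFb) system, namely the ligands (Tgfb1, Tgfb2, Tgfb3), the receptors (Tgfbr1, Tgfbr2, Tgfbr3) and the latent TGFb-binding proteins (Ltbp1 to Ltbp4). They were chosen by symbol, 10 genes in all, and 9 of them were measured among the 12623 genes of the table. Tgfb1 was not analysed here. Transcript levels came from RNA-seq of endothelial cells (EC), the cells that line blood vessels, isolated by cell sorting from lungs of C57BL/6N mice. Infant mice were in the second postnatal week and young adult mice in the second to the third month of life. Each age had 3 libraries, and no treatment or genetic change is named for either group. Whether a library pools animals is not given in the sources used here. The comparison addressed how TGFb signalling genes differ between EC of growing and of resting lung vessels. Values are RPKM (reads mapped to a transcript, scaled to its length in kilobases and to 1000000 reads of the library), which are per length and can therefore be set side by side between genes. The study reports an average transcriptome coverage, but read counts per library are not given in the sources used here.

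TGFb is secreted in a latent form. Furin cleaves the precursor, but the mature dimer stays wrapped in its own propeptide, and in most tissues a latent TGFb-binding protein (LTBP) is bound to that propeptide and ties the complex to fibrillin microfibrils of the matrix. Integrins and proteases release the ligand, which binds TGFBR2. TGFBR2 then recruits and phosphorylates TGFBR1, also called ALK5, and this kinase passes the signal to SMAD2 and SMAD3. In EC the same ligand can also engage ALK1 (gene Acvrl1) with the coreceptor endoglin. In the developing lung, TGFb is known for its role in alveolar septation and matrix deposition, and mesenchymal cells are known as a major source of LTBP and elastic fibre proteins.

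Before the members, the libraries need a description. Infant replicate 2 stood apart from the other infant libraries in markers of other cell types. The summed RPKM of the 10 measured of 12 fibroblast markers was 792.7, 242.8 and 640.9 in infant replicates 1 to 3 and between 9.5 and 20.6 in young adult libraries, with 9 of the 10 called lower and none at 0 in every young adult library. For 11 mural markers it was 266.8, 118.0 and 304.9 against 17.7 to 25.4, with 10 called lower. Pdgfra, a defining fibroblast gene, was at 87.2, 2.6 and 66.8 RPKM in the infant libraries and did not exceed 0.6 RPKM in those of young adults. Not all markers were low in infant replicate 2, since Lum (4.1, 14.4 and 4.7 RPKM) and Dcn (7.6, 19.9 and 8.0 RPKM) on the fibroblast list were highest there. The summed RPKM of 14 endothelial markers lay between 3359 and 5016 in infant and between 5600 and 6051 in young adult libraries, with 2 of the 14 called higher. Epithelial markers summed to between 6481 and 11320 RPKM in infant and between 1806 and 8333 RPKM in young adult libraries. Most of these sums came from Sftpc and Scgb1a1. Sftpc was at 3733.9 to 4683.1 RPKM in infant and 1450.9 to 4883.1 RPKM in young adult libraries, and Scgb1a1 at 2470.7 to 6286.0 and 258.1 to 3138.3 RPKM. Epcam did not exceed 1.1 RPKM in any library. Leukocytes had been removed by PTPRC in the sort, and their markers summed to 323.6 to 519.1 and 140.6 to 557.4 RPKM. Lyz2 alone made up most of each sum, with a range of 275.3 to 467.1 RPKM across infant libraries. Its young adult range was 134.3 to 515.5 RPKM. Ptprc itself lay between 3.0 and 7.0 RPKM at the infant age and did not exceed 1.8 RPKM at the later age. Of 9 measured epithelial markers 4 were called lower, and of 9 measured leukocyte markers 3. No marker of these types was called higher, and the median log2 fold changes were -1.21 and -1.23. In bulk libraries, fewer cells of a type and less RNA per cell cannot be told apart. The 4 globin genes held between 3.41% and 23.5% of the RPKM over genes in infant libraries and at most 0.487% in young adult libraries. The 4 Y-linked genes examined, which only male cells express, measured between 2.1 and 21.9 RPKM in every infant library and 0.0 in every young adult library, although the study's methods name female mice, so that sex and age cannot be told apart here.

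Between the age groups 6 of the 9 members were called lower in young adult EC and none was called higher, where called means an adjusted p under 0.05 (limma, Benjamini-Hochberg) and a log2 fold change beyond 0.81 in size on the log2(RPKM + 1) scale. Of all 12458 tested genes, 11.4% were called, 8.1% lower and 3.33% higher. Both measured ligands, the receptor gene Tgfbr2 and all latent binding protein genes but Ltbp1 were among the called members. The median log2 fold change of the 9 was -0.93, against -0.07 over all tested genes. The infant and young adult libraries did not overlap for 7 members, all lower in young adult EC. Of all tested genes 43.4% were separated in this way, 27.1% lower and 16.4% higher in young adult EC. Leaving out 1 library reduced the number of called members to between 2 and 3, except that all 6 were called without infant replicate 2. Ltbp2 and Tgfb3 were called in each of these 6 fits.

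**Figure D1:**
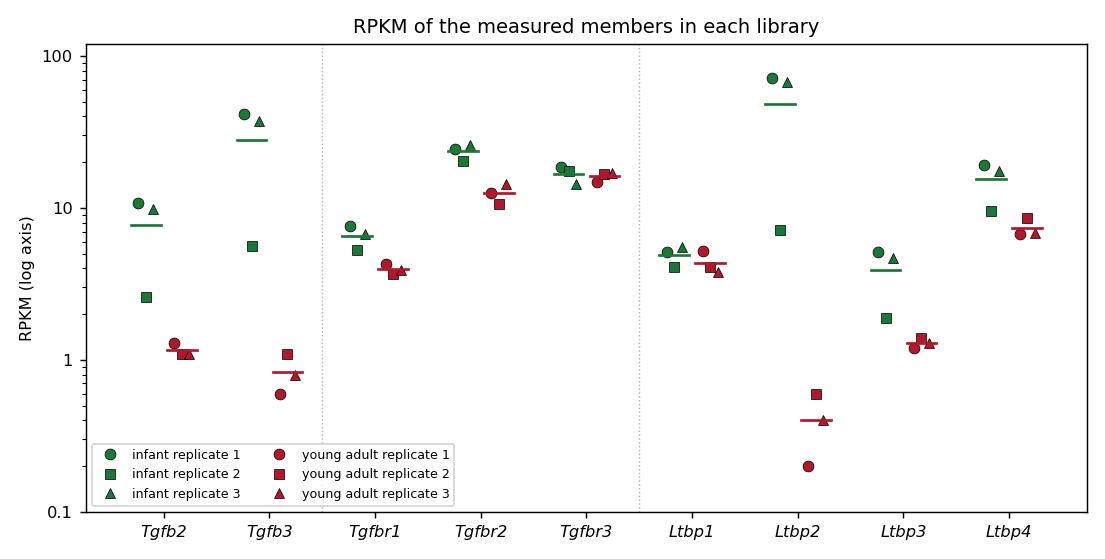
RPKM (log axis) of the 9 measured members in each of the 6 libraries, with infant libraries in green, young adult libraries in red, a symbol per replicate number and a line at each group mean. Ltbp2 and Tgfb3 show the widest gap between the groups, and infant replicate 2 (green square) lies below the other infant libraries for every member but Tgfbr3.

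Promoter sequence was examined for members that were called lower and, beside them, for a member that was not. Windows of 250 bases upstream of a transcript start were found in the RefSeq table for 7 of the members. The stretches for Ltbp2 (largest fall), Tgfb2 (a ligand that fell), Tgfbr2 (a receptor that fell) and Ltbp1 (no call) are shown on the strand of the gene, 5′ to 3′ (RefSeq, GRCm38.p6), with each match to a searched motif in capitals. The windows of Ltbp2 and Ltbp1 were shortened to 183 and 201 bases to leave out bases within the annotated gene, and that of Tgfb2 precedes an internal transcript start and lies inside the annotated gene but outside its exons.
Ltbp2, chr12:84876559-84876741, minus strand: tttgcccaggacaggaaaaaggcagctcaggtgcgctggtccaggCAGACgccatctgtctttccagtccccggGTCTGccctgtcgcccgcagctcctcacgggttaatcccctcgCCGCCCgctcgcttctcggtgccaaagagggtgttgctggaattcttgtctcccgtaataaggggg
Tgfb2, chr1:186705990-186706239, minus strand: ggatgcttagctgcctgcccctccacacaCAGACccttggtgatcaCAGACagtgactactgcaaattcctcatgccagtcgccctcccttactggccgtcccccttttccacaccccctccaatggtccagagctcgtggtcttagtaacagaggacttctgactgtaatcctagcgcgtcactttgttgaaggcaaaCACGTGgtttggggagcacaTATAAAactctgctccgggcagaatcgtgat
Tgfbr2, chr9:116175364-116175613, minus strand: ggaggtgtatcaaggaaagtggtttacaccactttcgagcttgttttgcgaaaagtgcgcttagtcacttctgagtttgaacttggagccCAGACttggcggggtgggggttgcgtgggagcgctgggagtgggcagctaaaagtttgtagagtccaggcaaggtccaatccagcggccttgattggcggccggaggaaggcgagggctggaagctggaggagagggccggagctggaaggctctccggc
Ltbp1, chr17:75005279-75005479, plus strand: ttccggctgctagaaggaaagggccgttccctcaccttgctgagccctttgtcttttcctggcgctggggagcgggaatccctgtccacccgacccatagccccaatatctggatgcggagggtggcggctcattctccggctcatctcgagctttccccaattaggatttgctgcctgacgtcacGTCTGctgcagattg

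The motifs searched on both strands were the SMAD-binding core CAGAC, the SMAD palindrome GTCTAGAC, the GC box GGGCGG, the TATA box TATAAA, the AP-1 site TGANTCA and the E-box CACGTG, none of which overlapped another in these stretches. CAGAC was present 2 times in the Ltbp2 and the Tgfb2 stretch and 1 time in those of Tgfbr2 and Ltbp1. Of the windows not shown, those of Ltbp4 held 0 CAGAC, that of Ltbp3 1, those of Tgfbr1 0 and 1, and another of Ltbp1 2. CAGAC is a short motif that 42.2% of the 32851 windows of 250 bases over all genes held. These shares refer to windows of full length. The Tgfb2 stretch also held 1 TATAAA, found in 12.4% of windows, and 1 CACGTG, found in 6.02%. The Ltbp2 stretch held 1 GGGCGG (32.7% of windows). GTCTAGAC and TGANTCA had no match in the 4 stretches.

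The ligand gene Tgfb3 had the largest difference of the ligands. In replicates 1 to 3 it was at 41.6, 5.6 and 37.3 RPKM in infant EC but only at 0.6, 1.1 and 0.8 RPKM in EC of young adults. The groups were far apart, although infant replicate 2 was 7.04-fold below the mean of the other infant libraries. The mean fell from 28.2 ± 19.7 to 0.833 ± 0.252 RPKM (SD, n = 3 each), a 33.8-fold difference of means and and the log2 fold change was -3.60 ± 0.64 (SE; limma adjusted p 0.00877). Infant replicate 2 alone was still 6.72-fold above the young adult mean. Tgfb3 lies on chromosome 12 from 86056743 to 86079041 (GRCm38.p6, whole gene).

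Tgfb2 (chromosome 1, 186622787 to 186709697), whose product needs betaglycan for efficient receptor binding, was at 10.8, 2.6 and 9.8 RPKM in the infant and at 1.3, 1.1 and 1.1 RPKM in the young adult libraries. Infant replicate 2 again lay closest to the young adult values, at 2.23-fold their mean. The mean of Tgfb2 fell from 7.73 ± 4.47 to 1.17 ± 0.115 RPKM, with a log2 fold change of -1.83 ± 0.41 (SE) and a limma adjusted p of 0.018. Of the 6 fits with a library left out, Tgfb2 was called only in that without infant replicate 2, in which the log2 fold change was -2.38. The ratio of the measured ligands, added after seeing the data, also differed between the ages. The log2 ratio of Tgfb3 to Tgfb2 RPKM was 1.95, 1.11 and 1.93 in the infant libraries and -1.12, 0.0 and -0.459 in those of young adults, which differ by -2.19 in mean (p 0.1 in an exact two-sided permutation test, the smallest that 3 against 3 libraries allow). Tgfb3 exceeded Tgfb2 in all infant libraries, and in young adult EC it was equal to Tgfb2 in replicate 2 and below it in the others. The young adult ranges of these genes overlapped at low level, so their order there is not settled.

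The receptor genes differed less between the ages and varied less between infant libraries. Tgfbr2 (chromosome 9, 116087695 to 116175363), which encodes the ligand-binding kinase, was at 24.6, 20.4 and 26.0 RPKM in the infant and at 12.6, 10.7 and 14.4 RPKM in the young adult libraries. All infant libraries were above all young adult libraries, and infant replicate 2 was only slightly below the others, at a ratio of 0.806. Tgfbr2 fell from 23.7 ± 2.91 to 12.6 ± 1.85 RPKM, by a log2 fold change of -0.86 ± 0.14 (limma adjusted p 0.0057). It was called in 4 of the 6 fits without 1 library and lost the fold threshold without infant replicate 3 or young adult replicate 2. The log2 fold change over these fits ranged from -0.96 to -0.76.

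Tgfbr1 (chromosome 4, 47353222 to 47414926), which encodes ALK5, was at 7.6, 5.3 and 6.7 RPKM in the infant and at 4.3, 3.7 and 3.9 RPKM in the young adult libraries. The groups did not overlap, and the log2 fold change of -0.59 ± 0.13 had a limma adjusted p of 0.0185, but the difference stayed under the fold threshold. The log2 ratio of Tgfbr2 to Tgfbr1 averaged 1.87 ± 0.148 over the infant libraries and 1.66 ± 0.198 over those of young adults (SD, n = 3 each). The means differed by -0.209 (exact permutation p 0.2, two-sided, where 3 against 3 libraries cannot go below 0.1). Tgfbr2 transcripts exceeded Tgfbr1 transcripts in every library.

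Tgfbr3 (chromosome 5, 107106567 to 107289629) encodes betaglycan, a coreceptor that presents TGFb2. It was at 18.5, 17.6 and 14.4 RPKM in the infant and at 14.9, 16.7 and 17 RPKM in the young adult libraries. The groups overlapped, and the 95% confidence interval of the log2 fold change of -0.05 reached from -0.32 to 0.22 (limma adjusted p 0.795). The direction of this value changed under other scalings of the libraries. Of the members Tgfbr3 had the highest mean RPKM at the young adult age.

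**Figure D2:**
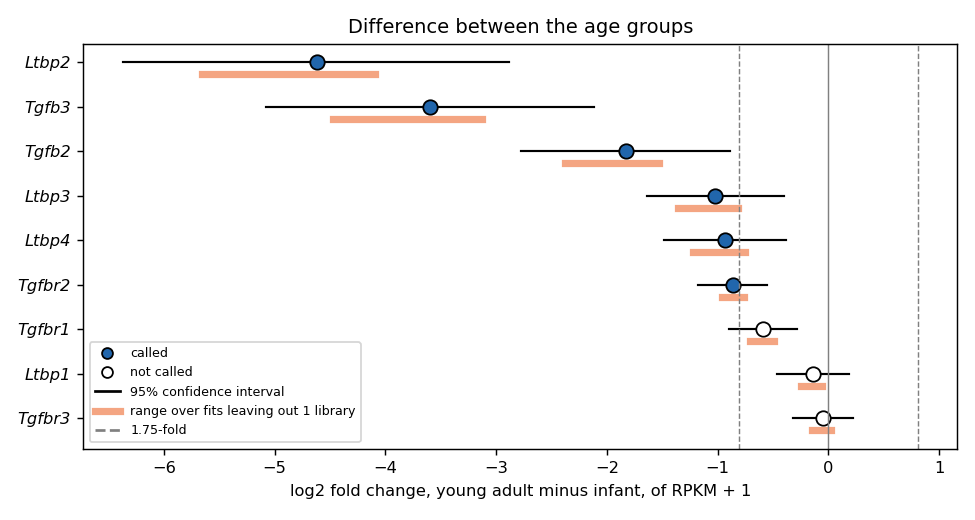
Log2 fold change (young adult minus infant, RPKM + 1) of the 9 members with 95% confidence intervals as black lines and the range over the 6 fits that each left out 1 library as orange bars. Filled circles were called, and dashed lines mark the fold threshold. All 9 estimates lie below 0, from -4.62 for Ltbp2 to -0.05 for Tgfbr3, and the intervals of Ltbp1 and Tgfbr3 include 0.

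Ltbp2 had the largest difference of all members. Its product is a fibrillin-associated matrix protein that, unlike its relatives, does not bind latent TGFb. Ltbp2 (chromosome 12, 84783212 to 84876558) was at 71.4, 7.2 and 67.0 RPKM in replicates 1 to 3 of infant EC and at 0.2, 0.6 and 0.4 RPKM in those of young adults. Infant replicate 2 was 9.61-fold below the mean of the other infant libraries and 18-fold above the young adult mean. Ltbp2 fell from 48.5 ± 35.9 to 0.4 ± 0.2 RPKM, with a log2 fold change of -4.62 ± 0.75 (limma adjusted p 0.0065). The ratio of means was 121-fold, and rounding of the deposited values to 1 decimal alone would allow 108-fold to 139-fold. Ltbp2 was called under every setting examined, including a test against the fold threshold itself.

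Ltbp3 and Ltbp4 changed less and in a like manner. Ltbp3 (chromosome 19, 5740900 to 5758536), whose product binds latent TGFb, was at 5.1, 1.9 and 4.7 RPKM in the infant and at 1.2, 1.4 and 1.3 RPKM in the young adult libraries. Its log2 fold change was -1.02 ± 0.27 (limma adjusted p 0.0298). Ltbp4 (chromosome 7, 27305140 to 27339720), which encodes an LTBP that also serves elastic fibre assembly, was at 19.2, 9.6 and 17.5 RPKM in the infant and at 6.7, 8.6 and 6.8 RPKM in the young adult libraries. Its log2 fold change was -0.93 ± 0.24 (limma adjusted p 0.0273). In both genes infant replicate 2 lay between the other infant libraries and the young adult libraries, and of the 6 fits with a library left out they were called only in that without infant replicate 2. Without that library the log2 fold changes were -1.36 for Ltbp3 and -1.22 for Ltbp4.

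Ltbp1 (chromosome 17, 75005480 to 75392512) encodes an LTBP that binds the latent complex and anchors it to the matrix. It was at 5.1, 4.1 and 5.5 RPKM in the infant and at 5.2, 4.1 and 3.8 RPKM in the young adult libraries. The groups overlapped, and the log2 fold change was -0.14 with a 95% confidence interval from -0.46 to 0.19 (limma adjusted p 0.498). It changed sign under quantile normalization. Ltbp1 was thus the only latent binding protein gene with no call.

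The makeup of the LTBP transcripts differed between the ages. The summed RPKM of the 4 genes was 100.8, 22.8 and 94.7 in the infant libraries and 13.3, 14.7 and 12.3 in those of young adults. Ltbp2 held 70.8%, 31.6% and 70.7% of this sum in the infant libraries but 1.5%, 4.08% and 3.25% in the young adult libraries. Ltbp4 held 19.0%, 42.1% and 18.5% in infant and 50.4%, 58.5% and 55.3% in young adult libraries, so that it was the leading LTBP transcript of every young adult library and of infant replicate 2. The mean share of Ltbp4 was higher by 28.2 percentage points (exact two-sided permutation p 0.1, the smallest this design allows). The level of Ltbp4 itself was called lower, and the sum fell mostly through Ltbp2, so the higher share is no gain of Ltbp4 transcript. Ltbp1 held 27.9% to 39.1% of the sum in young adult libraries.

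**Figure D3:**
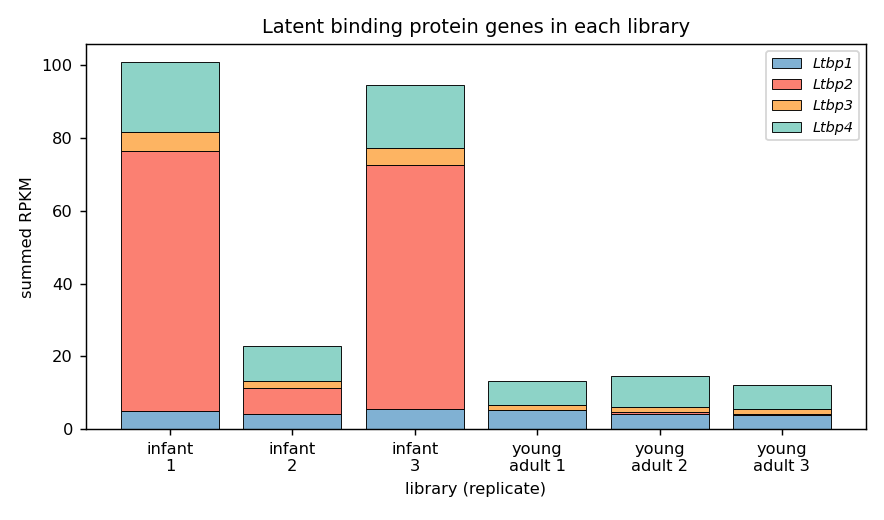
Summed RPKM of Ltbp1, Ltbp2, Ltbp3 and Ltbp4 in each library, stacked by gene. Ltbp2 makes up most of the bar in infant replicates 1 and 3, at 71.4 and 67.0 RPKM, while Ltbp4 is the largest part in infant replicate 2 and in the young adult libraries.

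Ordered by mean RPKM, the members ran from Ltbp2, Tgfb3, Tgfbr2, Tgfbr3, Ltbp4, Tgfb2, Tgfbr1 and Ltbp1 down to Ltbp3 in infant EC. Of these neighbours only Tgfbr2 and Tgfbr3 had ranges that did not overlap, and infant replicate 2 was the lower end of the range for all but Tgfbr3. In young adult EC the order was Tgfbr3, Tgfbr2, Ltbp4, Ltbp1, Tgfbr1, Ltbp3, Tgfb2, Tgfb3 and Ltbp2. There the first 3 were separated from each other and from Ltbp1, and Tgfbr1 was separated from Ltbp3, whereas Ltbp1 and Tgfbr1, and the 4 lowest genes from one to the next, overlapped. Ltbp2 and Tgfb3 held the top of the infant order by their levels in replicates 1 and 3. In infant replicate 2, Tgfbr2 (20.4 RPKM), Tgfbr3 (17.6 RPKM) and Ltbp4 (9.6 RPKM) were above both.

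Infant replicate 2 was strictly the lowest infant library for 8 of the 9 members, against 35.6% of all tested genes. Its ratio to the mean of infant replicates 1 and 3 was 0.104 for Ltbp2, 0.142 for Tgfb3, 0.252 for Tgfb2, 0.388 for Ltbp3 and 0.523 for Ltbp4, but 0.741 for Tgfbr1, 0.774 for Ltbp1, 0.806 for Tgfbr2 and 1.07 for Tgfbr3. The median of this ratio was 0.514 over the fibroblast markers, 0.564 over the mural markers, 1.33 over the endothelial markers and 1.0 over all tested genes. The members with the lowest ratios were also those with the largest difference between the ages. They moved between infant libraries in the direction of most fibroblast and mural markers. Of these markers, 8 of 10 and 8 of 11 were lowest in infant replicate 2. All 6 erythroid markers were lowest there as well, with a median ratio of 0.2. The part of any of these cell types in the result was not tested.

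**Figure D4:**
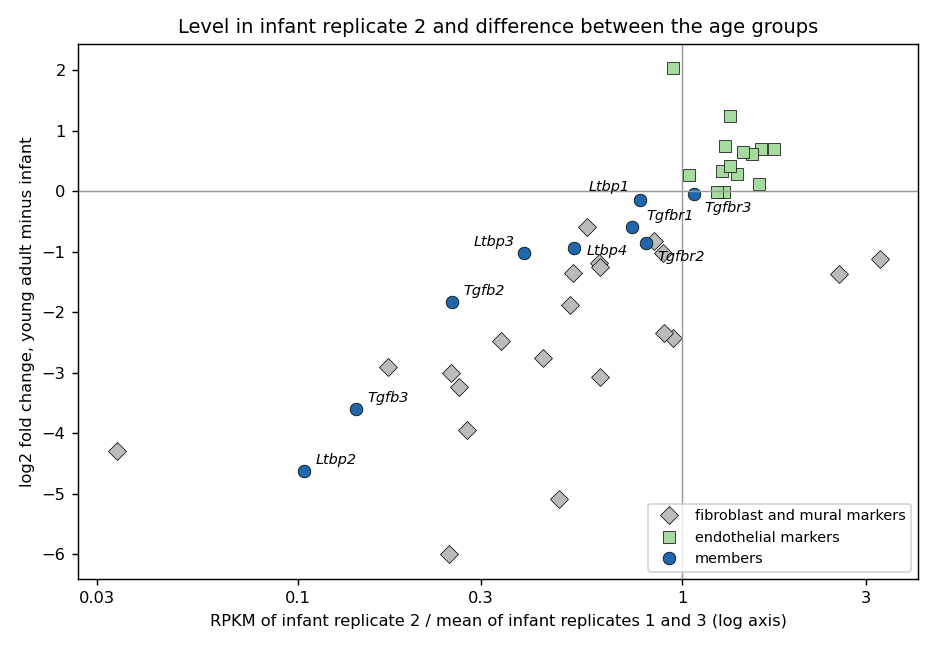
Ratio of infant replicate 2 to the mean of infant replicates 1 and 3 (log axis) against the log2 fold change between the age groups, for the 9 members (blue circles), fibroblast and mural markers (grey diamonds) and endothelial markers (green squares). Infant libraries enter both axes. Ltbp2, Tgfb3 and Tgfb2 lie at ratios from 0.104 to 0.252, toward the low end of the fibroblast and mural markers (medians 0.514 and 0.564). The receptor genes lie at ratios from 0.741 to 1.07. Erythroid markers (median 0.2) are not drawn.

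To place each member, the genes of most similar pattern were searched by the root mean square difference of centred log2(RPKM + 1) values over the 6 libraries, among genes with a mean of at least 5 RPKM. Tgfb3 was closest to Lamb1, a laminin chain gene (0.104), followed by Thbs2 (0.144) and Wnt5a (0.145). Tgfb2 was closest to Snai2 (0.112), which encodes a transcription factor of mesenchymal cells, and then to Rbms3 (0.14). For Ltbp2 the closest were P2ry14 (0.15) and the elastin gene Eln (0.237), which was at 641.1, 48.1 and 414.5 RPKM in the infant libraries and did not exceed 8.7 RPKM in those of young adults. The member nearest to Ltbp2 was Tgfb3, at 0.538. Ltbp3 and Ltbp4 were 0.101 apart, and Scd2 was the nearest gene to both (0.0657 and 0.0522).

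The receptor genes had other neighbours. Tgfbr2 was closest to Filip1l (0.0356), Pabpc1 (0.0647) and Mylk (0.0799), and Tgfbr1 to Zyx (0.0198), which encodes a focal adhesion protein. Tgfbr3 was closest to Tm9sf2 (0.0194), and Ltbp1 to Skil (0.0378), a gene that encodes a repressor of SMAD signalling. Distances are smaller where a gene varies little, so they cannot be ranked between members. Tgfbr1 and Tgfbr2 were 0.187 apart.

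Of the members 3 were listed by 2 RefSeq transcripts each. The rows of Tgfbr2 (NM_029575 and NM_009371) differed by a ratio between 1.008 and 1.014 in all 6 libraries. Those of Ltbp4 (NM_001113549 and NM_175641) differed by 1.03 to 1.047, and those of Ltbp1 (NM_206958 and NM_019919) by 1.146 to 1.186. The ratio of the rows was nearly the same in infant and young adult libraries, and isoforms could not be told apart from these values. The other members had 1 row each.

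Ltbp2 and Tgfb3, the members with the largest falls, lie on the same chromosome with 1.18 Mb between them. Of the 13 tested protein-coding genes between them, 2 were called, Pgf and Fos, both lower, beside 11.4% of all tested genes. The median log2 fold change of the 13 was -0.06.

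The other genes of the pathway were described by role from 6 lists. Over the 73 tested genes that are not members, 30 were called lower and 2 higher in young adult EC (limma), beside 8.1% and 3.33% of all tested genes. Several lists hold genes that fibroblasts or mural cells also express at high level (Fbln1, Mfap4, Dcn, Acta2 and Tagln are also on those marker lists), and the part of such cells was not tested.

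Genes for activation of the latent complex (11 tested) gave 4 lower and 1 higher call, with a median log2 fold change of -0.48. Thbs1, whose product thrombospondin 1 can activate latent TGFb, fell by 2.68 on the log2 scale, from 90.8, 33.8 and 79.9 RPKM in infant to between 8.5 and 9.5 RPKM in young adult libraries. The matrix protease genes Mmp2 (-2.55) and Mmp14 (-2.05) were also called lower. In contrast, Lrrc32, which encodes GARP, a membrane protein that holds latent TGFb at the cell surface, was at 3.1, 4.6 and 3.1 RPKM in the infant and at 19.5, 15.6 and 11.8 RPKM in the young adult libraries. Its log2 fold change was 1.84 ± 0.20 (limma adjusted p 0.00156), and it was called in each fit that left out 1 library. Furin (-0.22, adjusted p 0.166) and the integrin gene Itgav (-0.49, adjusted p 0.105) were not called.

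Among 6 other receptor genes of EC, Acvrl1 was the only one called. It was at 224.0, 327.5 and 223.9 RPKM in the infant and at 440.2, 496.8 and 531.1 RPKM in the young adult libraries (log2 fold change 0.94 ± 0.19, limma adjusted p 0.0127). Quantile normalization, a test against the fold threshold itself or leaving out young adult replicate 2 ended the call. The RPKM of Acvrl1 exceeded that of Tgfbr1, the other type I receptor of TGFb, in every library. Eng, which encodes endoglin, was at 107.1, 110.7 and 65.1 RPKM in the infant and at 121.5, 171.2 and 180.5 RPKM in the young adult libraries. These groups did not overlap, but the adjusted p of 0.0528 (limma) missed the threshold, and Eng was called without infant replicate 2.

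Of 19 tested genes for SMADs and their regulators, 2 were called, both lower, and the median was 0.04. These were Pmepa1 (-1.31), which encodes an inhibitor of TGFb signalling, and Tgif1 (-0.94), which encodes a SMAD corepressor. Of these, Pmepa1 was called in only 1 of the 6 fits that left out a library, that without infant replicate 2. Smad2 (-0.10, adjusted p 0.497) and Smad4 (-0.26, adjusted p 0.099) were not called. Smad3, a carrier of the TGFb signal, was at 3.5, 0.6 and 4.0 RPKM in the infant and at 0.8, 0.4 and 0.8 RPKM in the young adult libraries. Its groups overlapped through infant replicate 2 (log2 fold change -1.0, adjusted p 0.106), and without that library it was called at -1.52. The inhibitory Smad6 (0.70, adjusted p 0.00914) and Smad7 (0.62, adjusted p 0.00959) did not overlap between the groups and were higher in young adult EC, but under the fold threshold.

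Genes for fibrillins and their elastic fibre partners gave 9 lower calls among 13 tested, with a median of -1.95. Mfap4 (-5.09), Eln (-4.89), Fbln1 (-2.90) and Fbn1 (-2.80) led the list. Fbn1, which encodes the microfibril protein fibrillin 1, was at 21.0, 4.3 and 24.2 RPKM in the infant libraries and did not exceed 1.3 RPKM in those of young adults. In 12 of the 13 genes infant replicate 2 was the lowest infant library. Of 6 tested genes for extracellular binders of TGFb or of other ligands of its family, 4 were called lower, with a median of -1.27. These were Htra1 (-2.06), Bgn (-2.04), Dcn (-1.37) and Fstl3 (-1.18), and Dcn alone of these was highest in infant replicate 2, at 19.9 RPKM against 7.6 and 8.0 RPKM. The calls of Htra1, Bgn and Fstl3 were lost in 5 of the 6 fits without a library, and that of Dcn in 3.

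Genes that TGFb is known to induce gave 14 lower and no higher calls among 23 tested, with a median of -1.39. The other 9 were not called. The log2 fold changes of the 23 ran from -5.87 to 1.39, with 20 below 0 and 3 above it, among them that of Smad7 (0.62). The list holds Ltbp2 itself and genes that other pathways induce as well. Beside Ltbp2, the genes of largest change were Col1a1 (-5.87), Col1a2 (-5.42), Tgfbi (-5.08) and Postn (-3.66). Postn was at 48.6, 40.3 and 70.2 RPKM in the infant libraries and did not exceed 4.0 RPKM in those of young adults. Ctgf fell from 44.5, 16.6 and 22.5 to between 9.2 and 11.7 RPKM (-1.25 ± 0.31, limma adjusted p 0.0252), but it remained past both thresholds in only 2 of the 6 fits with a library left out.

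**Figure D5:**
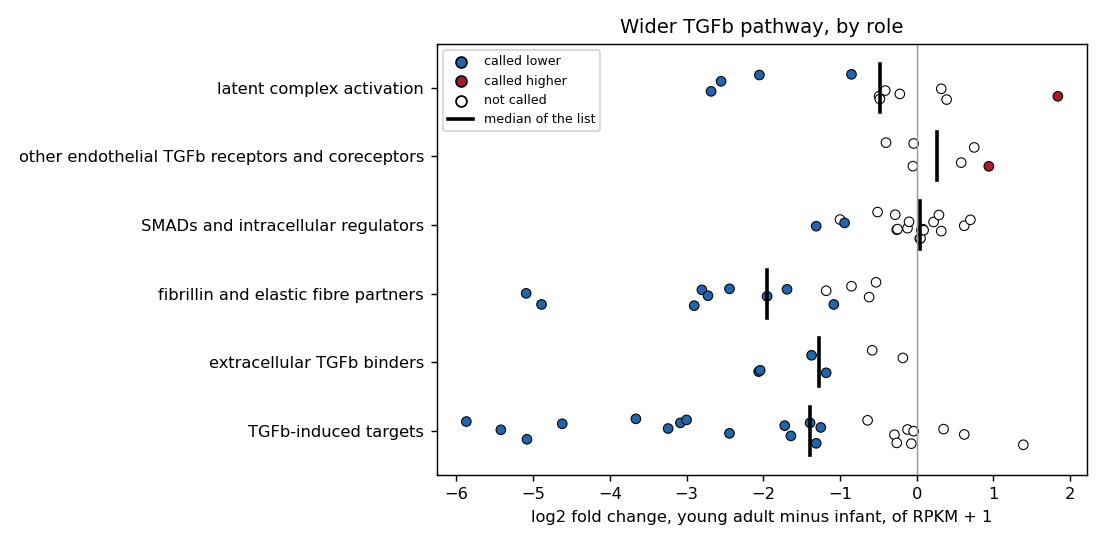
Log2 fold change (young adult minus infant, RPKM + 1) of each tested gene in 6 lists of the wider TGFb pathway, with vertical jitter for legibility, genes called lower in blue, called higher in red and not called in white, and a bar at the median of each list. The medians lie between -1.95 for fibrillin and elastic fibre partners and 0.27 for other endothelial receptors, and Lrrc32 and Acvrl1 are the 2 genes called higher.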

How the data were processed

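RNA of EC sorted by flow cytometry (CD31+ CD34+ living cells without PTPRC, LYVE1, PDPN and LY76) was amplified by the SMARTer Ultra Low protocol, so polyadenylated RNA was measured. The authors aligned paired reads to mm10 with STAR and used the RefSeq annotation and DESeq2 (versions and the RPKM program are not given in the sources used here). The deposited values were RPKM, rounded by the authors to 1 decimal, in 17241 transcript rows and 6 columns. Groups and replicate numbers came from library titles. Read counts per library are unknown, and values under 1 RPKM carry a rounding step of 0.1. An abundant transcript lowers all other RPKM of its library.

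For each gene the row with the highest mean RPKM was kept, after 24 symbols turned into dates were restored from their accession. Genes with at least 1 RPKM in at least 1 library (12458) were tested with limma 3.58.1 (R 4.3.3) on log2(RPKM + 1) (eBayes, trend on mean level). Age was the sole model term, and p-values were adjusted by Benjamini-Hochberg over all tested genes. This replaced the study's count test. A pseudocount of 1 understates the change of low genes. The fold threshold and the filter are the study's. The script was tested on simulated data. Limma p-values weigh the difference between the groups against the spread between libraries, which were treated as independent. Single ratios were compared with exact two-sided permutation tests (scipy 1.17.1).

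All members are named. Of each pathway list, up to 4 called genes of largest change and a fixed set of classic members are named. A gene of that set is not reported here. Members and lists were chosen with earlier results of these data known. The share of Tgfb1 among the ligands had been planned and was not computed, and the ratio of Tgfb3 to Tgfb2 was added after seeing the data. The labels name no pairing of libraries by replicate number, and none was modelled. Correlations of deviations from the group mean were 0.028, -0.11 and -0.021 for numbers 1 to 3. With 3 libraries per group they cannot settle whether libraries of the same number were processed together. Alternatives were other pseudocounts, filters, scalings, eBayes settings, weights, transcript rows, thresholds and leaving out each library.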

Additional observations from a re-analysis of the deposited data

How the results depend on the processing

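The number of called members was 6 and moved most with the threshold, the pseudocount and the libraries used. A test against the fold threshold itself (limma treat) called 1 member, Ltbp2, and 10 of the wider pathway genes instead of 32, since it asks for more than the adjusted p and the fold separately. A pseudocount of 5 called 3 members (Ltbp2, Tgfb2 and Tgfb3). Leaving out 1 library gave 2 to 6 called members and 16 to 39 called pathway genes, the fewest pathway genes without young adult replicate 1, 19 without young adult replicate 2 and the most without infant replicate 2. The difference in the Ltbp4 share ranged from 24.1 to 36.0 percentage points over these fits, and that of the log2 ratio of Tgfbr2 to Tgfbr1 from -0.324 to -0.147, the smallest without young adult replicate 2. With the replicate number as a block, 5 members were called, Ltbp4 being lost, 31 pathway genes and 1371 genes in all (1424 without it). Quantile normalization and median-of-ratios size factors also left 5 called members, losing Ltbp3 and Tgfbr2, respectively. The labels name no pairing by these numbers, and only young adult replicate 1 correlated best with its own number. The sign of the log2 fold change of Tgfbr3 changed to 0.04 when libraries were scaled to one sum, 0.02 with median-of-ratios size factors and 0.00 with array weights, and to between 0.01 and 0.02 without young adult replicate 1 or infant replicate 1 (range over libraries left out -0.15 to 0.02). That of Ltbp1 (0.02) and Smad2 (0.08) changed under quantile normalization, which moved the median of all genes from -0.071 to 0.044. The number of genes called in all, 1424, became 578 with a pseudocount of 5, 176 in the test against the fold threshold, 3176 by adjusted p alone and 842 to 1874 without a library, and quantile normalization changed its split to 532 higher and 611 lower. The cause was not tested. The other members kept their direction under every alternative run.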
